A study of Mus musculus with 9 samples.

Results

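The genes described here encode collagens, laminins and other proteins of the extracellular matrix. A list of 34 such genes was taken, and each gene is represented by its brightest probe set (averaged over the arrays) among those that the platform table assigns to that symbol alone. Of the 34 genes 33 were measured, among 18193 genes in all, and Fbn1 had no such probe set. They are 5 fibrillar collagens, 2 chains of collagen VI, 15 basement membrane genes, 3 small leucine-rich proteoglycans, 2 microfibril glycoproteins and 6 adhesive and matricellular glycoproteins.

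RNA was measured on 9 Affymetrix Mouse Genome 430 2.0 arrays of mouse cells labelled with the strain C57BL/6, in 3 groups of 3 arrays, described in the labels as biological replicates. The vehicle group held epiblast stem cells (EpiSCs), pluripotent cells like those of the epiblast after implantation, which the study calls conventional. The IWP2 group held EpiSCs given IWP2, an inhibitor of Porcupine, the enzyme that lipid-modifies Wnt proteins before they are secreted, and the study calls these cells genuine EpiSCs. Both EpiSC groups grew on 20 ng/ml Activin A and 12 ng/ml bFGF in N2B27, on plates coated with gelatine and FCS. The third group held embryonic stem cells (ESCs), which stand for the earlier naive state, in N2B27 with 1000 U/ml LIF and 250 ng/ml Wnt3a on plates coated with gelatine. Cell type, medium and plate coating thus changed together between ESCs and EpiSCs and cannot be told apart. The sources used here do not give the dose and duration of IWP2 or the origin of the lines. The labels' treatment text also speaks of Wnt3a given after IWP2, which the label of no EpiSC array names, and it does not say whether the IWP2 arrays received it.

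The extracellular matrix is the protein scaffold that cells secrete around themselves. Fibrillar collagens form the rope-like fibres of connective tissue, whereas basement membranes are thin sheets under epithelia in which networks of laminin and of type IV collagen are linked by nidogens and perlecan. In the early embryo the epiblast rests on a basement membrane, and fibronectin and interstitial collagens appear as cells leave the epiblast during gastrulation.

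All values are log2 signals after RMA normalization, so a difference of 1 is a 2-fold change. A gene was called when the adjusted p of limma was under 0.05. The median of all values was 5.24 and their lower quartile 3.72, and a difference against a group near that quartile is a lower limit of its size. Replicates of 1 group correlated at 0.997 to 0.998 over all probe sets, vehicle with IWP2 arrays at 0.982 to 0.985 and ESC with EpiSC arrays at 0.927 to 0.931. All 8 epiblast markers were at or above the median of all values in both EpiSC groups, and 6 of them also in ESCs. With IWP2 2 of the 8 rose, Sox3 by 1.37 the most, and 4 fell, Fgf5 by 2.48 the most. Of all genes 16.6% rose and 16.8% fell. All 11 naive markers were higher in ESCs than in either EpiSC group, against 38.7% of all genes for vehicle and 35.2% for IWP2. As a sign of RNA integrity, actin control probe sets at the 3' end exceeded those at the 5' end by 0.53 to 0.59 with vehicle, by 0.64 to 0.69 with IWP2 and by 0.64 to 0.66 in ESCs. This difference moved with the groups. The same difference for the Gapdh control was -0.06 to -0.02 with vehicle, -0.03 to 0.00 with IWP2 and -0.04 to 0.00 in ESCs, and overlapped between groups. The part of RNA integrity in the results below was not tested.

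Promoter sequences from RefSeq (GRCm38.p6), each running 250 bases before and 50 bases after a gene's start, were held for 22 of the 33 genes in 28 windows. Col4a1 and Col4a2, the chains of the most widespread collagen IV network, lie head to head on chromosome 8 and are transcribed in opposite directions. From the start sites used for these windows, the transcribed parts overlap by 22 bases. The gene record of Col4a1 reaches further, to base 11312889. The shared stretch is shown because both chains changed together below. The 250 bases before the start are shown for Col1a2, Col3a1 and Vtn, which were lower with IWP2, and for Nid1, which was higher in ESCs. These genes were picked after their values were seen. Capitals mark matches on either strand to the GC box GGGCGG, to the CCAAT box CCAAT, to the TATA box TATAAA and to the Tcf/Lef motif spelled CTTTGAA, or spelled CTTTGAT, or spelled CTTTGTA, or spelled CTTTGTT. All are given on the plus strand, 5′ to 3′, in the order Col4a1 and Col4a2 (chr8:11312805-11312826), Col1a2 (chr6:4505368-4505617), Col3a1 (chr1:45311288-45311537), Vtn (chr11:78498870-78499119) and Nid1 (chr13:13437352-13437601).
Col4a1 and Col4a2: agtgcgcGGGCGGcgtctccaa
Col1a2: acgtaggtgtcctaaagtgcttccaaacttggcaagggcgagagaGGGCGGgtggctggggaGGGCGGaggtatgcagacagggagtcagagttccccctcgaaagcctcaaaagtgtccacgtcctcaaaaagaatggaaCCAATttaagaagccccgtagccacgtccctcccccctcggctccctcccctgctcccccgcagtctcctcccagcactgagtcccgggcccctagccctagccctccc
Col3a1: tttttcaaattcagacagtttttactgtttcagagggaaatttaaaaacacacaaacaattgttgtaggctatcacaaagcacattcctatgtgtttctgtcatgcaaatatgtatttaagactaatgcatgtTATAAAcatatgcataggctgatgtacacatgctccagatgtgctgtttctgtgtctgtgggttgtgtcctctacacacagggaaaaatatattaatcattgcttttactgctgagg
Vtn: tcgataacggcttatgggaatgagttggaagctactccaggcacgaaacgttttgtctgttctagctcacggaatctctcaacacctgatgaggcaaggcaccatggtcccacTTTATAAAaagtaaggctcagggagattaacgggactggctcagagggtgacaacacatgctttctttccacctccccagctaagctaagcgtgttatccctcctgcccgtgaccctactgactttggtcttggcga
Nid1: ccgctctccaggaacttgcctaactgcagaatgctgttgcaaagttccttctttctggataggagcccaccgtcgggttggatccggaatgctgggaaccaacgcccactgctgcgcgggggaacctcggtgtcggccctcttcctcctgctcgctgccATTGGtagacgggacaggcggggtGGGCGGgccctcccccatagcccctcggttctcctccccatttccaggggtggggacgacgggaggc

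The stretch shared by Col4a1 and Col4a2 held 1 GC box, the Col1a2 sequence 2 GC boxes and 1 CCAAT box, and the Nid1 sequence 1 of each. Col3a1 held 1 TATA box and no GC box, and the capitals in Vtn are 2 TATA matches that overlap on opposite strands. The Col3a1 sequence was 35.2% G and C, against 62% for Col1a2 and 64.4% for Nid1. Over the full windows a GC box was found in 19 of 28 (67.9%), against 35.7% of all 32851 windows in the table, and a CCAAT box in 8 of 28 (28.6%), against 37.4%. Matches to GGGCGG depend on the share of G and C. It was 37.7% to 83.3% in the 28 windows, and its median over all windows was 52.7%. The part of base composition in the GC box shares was not tested. A TATA box was found in 5 of 28 (17.9%), against 13.6%, and these 5 windows belong to Col3a1, Vtn, Tnc and Postn. The 2 Tnc windows overlap. A Tcf/Lef motif was found in 3 windows (10.7%), against 16.9%, and among the 13 windows of genes lower with IWP2 in 1. A match is a match of letters, and whether a factor binds there was not measured.

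The first comparison asks what blocking Wnt secretion does to matrix genes of EpiSCs. Fibrillar collagens (Col1a2, Col3a1, Col5a1), type IV collagen (Col4a1, Col4a2) and the adhesive glycoproteins Fn1, Vtn, Tnc and Postn fell with IWP2, by 0.90 to 2.30 log2. Of the laminin, nidogen and perlecan genes 6 of 9 were not called, near the share of all genes, of which 33.5% were called. Decorin (Dcn), Lamc1 and Fbln1 rose. Of the 33 genes 3 rose and 13 fell, against 16.6% higher and 16.8% lower of all genes tested. At 2-fold or more 0 rose and 7 fell, against 0.901% and 2.81%, and without vehicle replicate 3 the falls of this size numbered 4. The median difference was -0.16 over the 33 genes and 0.03 over all genes.

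ESCs were set against the same vehicle arrays to ask how the naive state differs from conventional EpiSCs, and then against the IWP2 arrays. The comparisons share arrays, so their results are not independent, and they are given side by side. In ESCs the collagens Col1a2, Col3a1, Col4a1 and Col4a2 and the laminin chain Lamb1 were lower than in vehicle EpiSCs by 2.81 to 4.39 log2, and Thbs1 by 4.66. Nid1, Nid2 and Lama1 were higher by 1.50 to 2.73. Of the 33 genes 9 were higher and 17 lower, against 38.7% and 27.9% of all genes, and 3 and 12 at 2-fold or more, against 6.87% and 9.63%. The median was -0.31, against 0.12 over all genes. Against IWP2 EpiSCs 8 were higher and 13 lower, with 35.2% and 26.9% of all genes, and 4 and 8 at 2-fold or more, with 7.87% and 9.40%. The median was then -0.11, against 0.10. The lower quartile of values was 3.79 to 3.80 on ESC arrays and 3.66 to 3.69 on EpiSC arrays. Over the 11918 genes with a group mean at or above the median of all values, the median of all genes was 0.0007 against vehicle and 0.02 against IWP2. The part of low signals in the shares of all genes was not tested.

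**Figure D1:**
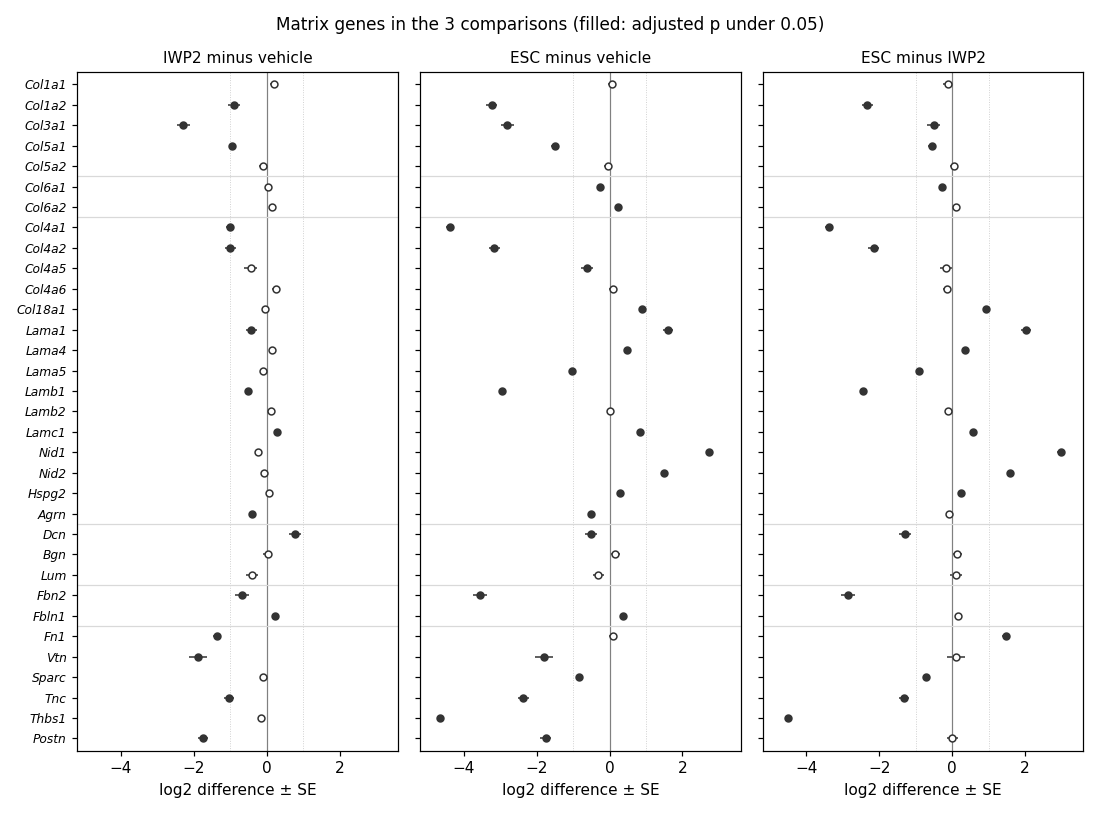
Each point is the log2 difference of 1 gene between 2 groups with its standard error (x axis), for the 33 genes (y axis) in the 3 comparisons, filled where limma's adjusted p was under 0.05, with thin lines between classes. The type IV collagens Col4a1 and Col4a2 lie left of 0 in all 3 panels, and Nid1 lies near 0 in the first panel and at 2.73 and 2.97 in the others.

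Among the fibrillar collagens 3 of 5 fell with IWP2 (median -0.90, with 16.8% of all genes lower), and the same 3 chains were lower in ESCs than in either EpiSC group. Col1a2, which encodes the α2 chain of type I collagen, read 8.30, 8.31 and 8.83 on vehicle arrays, 7.66, 7.66 and 7.42 on IWP2 arrays and 5.45, 5.05 and 5.23 on ESC arrays. It fell by 0.90 ± 0.154 (SE, n = 3 per group) with IWP2 (adjusted p = 0.00152), and in ESCs it was lower than with vehicle by 3.24 log2, 9.42-fold (adjusted p = 3.67e-08). The groups were ordered vehicle, IWP2, ESC with no overlap. The other Col1a2 probe sets fell with IWP2 by 0.93 and 0.34.

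Type III collagen is a homotrimer of the Col3a1 chain found in extensible tissues. Col3a1 read 6.35, 6.42 and 7.13 on vehicle arrays, 4.30, 4.40 and 4.31 on IWP2 arrays and 3.71, 3.81 and 3.95 on ESC arrays. It fell by 2.30 ± 0.176 with IWP2 (adjusted p = 8.48e-06), 4.91-fold, to below the median of all values. ESC arrays lay lower again by 0.51 (adjusted p = 0.0286), close to the lower quartile. Another Col3a1 probe set fell by 0.49 with IWP2 and was lower in ESCs than with vehicle by 0.65, both called, and was not called between ESCs and IWP2 cells (-0.17), with all group means below the lower quartile. The call of Col3a1 between ESCs and IWP2 cells was lost without IWP2 replicates 1, 2 or 3 or ESC replicates 1 or 2, with adjusted p of 0.0567, 0.0764, 0.0596, 0.0793 and 0.0604.

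Col5a1, a chain of type V collagen that starts fibre assembly, read 7.69, 7.51 and 7.92 with vehicle, 6.89, 6.71 and 6.69 with IWP2 and 6.26, 6.26 and 6.09 in ESCs. It fell by 0.94 ± 0.104 with IWP2 (adjusted p = 0.000101), and ESCs were lower than vehicle cells by 1.50 and than IWP2 cells by 0.56. Again the 3 groups did not overlap. Of the 3 Col5a1 probe sets 2 were called lower in each comparison, and 1 was not called in any. Col1a1, the partner chain of Col1a2 in type I collagen, was not called in any comparison, with group means of 4.42, 4.61 and 4.49 for vehicle, IWP2 and ESC that all lie below the median of all values. Col5a2, another type V chain, had means of 3.79, 3.70 and 3.75, near the lower quartile, and was not called.

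Collagen VI forms beaded filaments at the border of basement membranes. Neither measured chain was called with IWP2. Col6a1 had means of 4.36, 4.40 and 4.10 for vehicle, IWP2 and ESC and was lower in ESCs than in both, by 0.26 and 0.29. Col6a2 read 6.51, 6.39 and 6.24 on vehicle arrays, 6.49, 6.56 and 6.49 on IWP2 arrays and 6.75, 6.65 and 6.45 on ESC arrays. The groups overlapped, and ESCs were higher than vehicle cells by 0.24 (adjusted p = 0.0403). That call was kept in 2 of the 9 fits that each left out 1 array. It was lost without vehicle replicates 2 or 3 (adjusted p of 0.075 and 0.143), without any of IWP2 replicates 1 to 3 (0.0534, 0.0521 and 0.0544) and without ESC replicates 1 or 2 (0.141 and 0.0953).

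**Figure D2:**
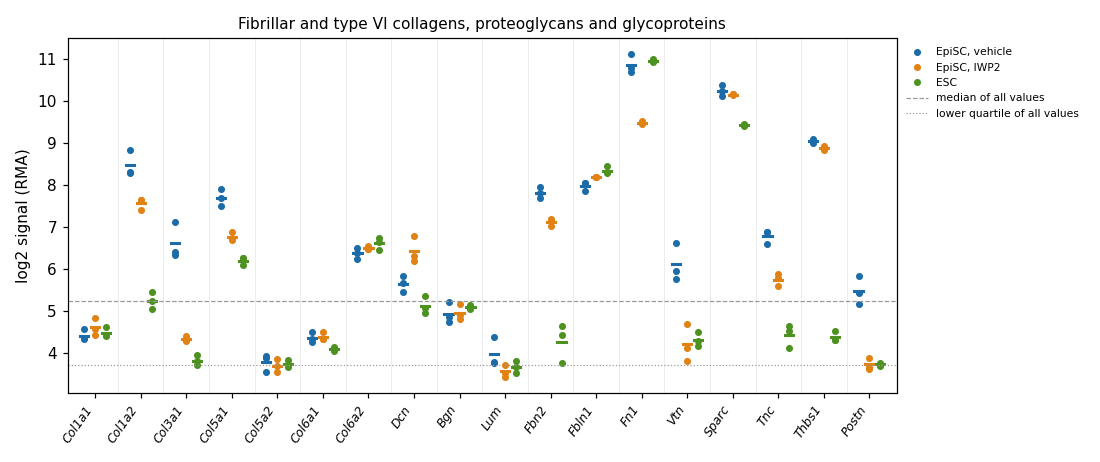
Each point is the log2 signal (y axis) of 1 array for the fibrillar and type VI collagens, proteoglycans and glycoproteins (x axis), coloured by group, with bars at group means and lines at the median (5.24) and lower quartile (3.72) of all values. Col3a1, Vtn and Postn are above the median on most or all vehicle arrays and below it on all IWP2 and ESC arrays, and Thbs1 is near 9 in both EpiSC groups and near 4.4 in ESCs.

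Of the 15 basement membrane genes 1 rose and 5 fell with IWP2 (median -0.12, with 16.6% and 16.8% of all genes), and in ESCs 7 were higher and 6 lower than with vehicle (median 0.10, with 38.7% and 27.9%). Lower in ESCs than with vehicle were the collagen IV chains Col4a1, Col4a2 and Col4a5, the laminin chains Lama5 and Lamb1, and Agrn. Higher were the laminin chains Lama1, Lama4 and Lamc1, both nidogens, Col18a1 and Hspg2. Against IWP2 cells 7 were higher and 4 lower in ESCs (median -0.10, with 35.2% and 26.9% of all genes).

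Col4a1 read 8.50, 8.52 and 8.85 on vehicle arrays, 7.60, 7.63 and 7.60 on IWP2 arrays and 4.16, 4.44 and 4.11 on ESC arrays. It fell by 1.02 ± 0.110 with IWP2 (adjusted p = 8.56e-05), and ESCs were lower than vehicle cells by 4.39 ± 0.110 (adjusted p = 3.6e-10), a 20.9-fold difference. By another Col4a1 probe set these differences were 0.77 and 1.74. Its neighbour Col4a2, with the shared start region printed above, had the same order of groups. Col4a2 read 7.46, 7.22 and 7.77, then 6.56, 6.38 and 6.51, then 4.51, 4.06 and 4.40 in the 3 groups. It fell by 1.003 ± 0.147 with IWP2 (adjusted p = 0.000616) and was 8.95-fold lower in ESCs than with vehicle. For both chains no array of 1 group overlapped another group.

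Col4a5 and Col4a6, chains of a collagen IV network with narrower tissue distribution, are a second head-to-head pair on the X chromosome. Col4a5 had means of 5.25, 4.80 and 4.63, was not called with IWP2 (-0.44, adjusted p = 0.0755) and was lower in ESCs than with vehicle by 0.62. Without vehicle replicate 2 the IWP2 difference was -0.65 and was called (adjusted p = 0.00735), and without vehicle replicate 3 it was -0.26 (0.227). Another Col4a5 probe set was lower in ESCs than with vehicle by 2.51 and than with IWP2 by 2.05, both called. Col4a6 was not called in any comparison, with means of 4.44, 4.68 and 4.53. Its difference of 0.24 with IWP2 became 0.32 and was called without vehicle replicate 3 (adjusted p = 0.0481) or without IWP2 replicate 1 (0.0445).

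Laminins are trimers of an α, a β and a γ chain. Lama1 encodes the α1 chain of early embryonic basement membranes. It read 4.11, 4.33 and 4.51 on vehicle arrays, 3.98, 4.01 and 3.69 on IWP2 arrays and 6.11, 6.00 and 5.65 on ESC arrays. ESCs were higher than vehicle cells by 1.60 (adjusted p = 4.21e-06) and than IWP2 cells by 2.03 (adjusted p = 6.51e-07), and every ESC array exceeded every EpiSC array. Both EpiSC groups were below the median of all values. The fall of 0.42 with IWP2 (adjusted p = 0.045) lost its call without vehicle replicates 2 or 3 (0.107 and 0.146), without any of IWP2 replicates 1 to 3 (0.0655, 0.0577 and 0.156) and without ESC replicate 2 (0.0533).

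Lama5, the α5 chain that succeeds α1 in many tissues, ran the other way. It read 9.09, 8.98 and 8.96 with vehicle, 9.001, 8.83 and 8.84 with IWP2 and 7.85, 8.05 and 8.002 in ESCs. Its difference with IWP2 was -0.12 (adjusted p = 0.265), and ESCs were lower than vehicle cells by 1.04 (adjusted p = 8.48e-07) and than IWP2 cells by 0.92. The EpiSC groups overlapped, and all ESC arrays were below them. Lama4, the α4 chain of vessel and muscle basement membranes, had means of 3.78, 3.91 and 4.27 and was higher in ESCs than in vehicle and IWP2 cells by 0.49 and 0.35. Without IWP2 replicate 1 its difference with IWP2 was 0.21 and was called (adjusted p = 0.0268).

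Lamb1, the β1 chain shared by most embryonic laminins, read 10.60, 10.60 and 10.53 with vehicle, 10.04, 10.04 and 10.12 with IWP2 and 7.66, 7.59 and 7.60 in ESCs. It fell by 0.51 ± 0.053 with IWP2 (adjusted p = 7.06e-05) and was 7.78-fold lower in ESCs than with vehicle (adjusted p = 3.58e-11). Of the 4 Lamb1 probe sets 3 were called lower with IWP2 and in ESCs than with vehicle. The other 1, with group means of 3.52 to 3.65, was not called. Lamc1, the γ1 chain that joins β1 in the same trimers, had the opposite order. Lamc1 read 8.16, 8.03 and 8.20, then 8.36, 8.39 and 8.49, then 8.94, 8.99 and 8.99. It rose by 0.28 ± 0.063 with IWP2 (adjusted p = 0.00674), and ESCs were higher than vehicle cells by 0.84 and than IWP2 cells by 0.56. Another Lamc1 probe set was not called with IWP2 (0.24). The 3 groups did not overlap for either gene. Lamb2, a β chain of later basement membranes, had means of 5.98, 6.11 and 6.00 and was not called in any comparison.

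Nidogens bridge the laminin and collagen IV networks, and both genes were higher in ESCs than in EpiSCs. Nid1 read 6.96, 6.85 and 7.25 on vehicle arrays, 6.79, 6.70 and 6.85 on IWP2 arrays and 9.76, 9.76 and 9.73 on ESC arrays. ESCs were higher than vehicle cells by 2.73 ± 0.094, 6.63-fold (adjusted p = 3.18e-09), and than IWP2 cells by 2.97. The difference with IWP2 was -0.24 (adjusted p = 0.0768), and without vehicle replicate 2 it was -0.32 and called (0.0284), and without vehicle replicate 3 -0.13 (0.194). Another Nid1 probe set, below the lower quartile in both EpiSC groups, was called higher with IWP2 by 0.28, and the remaining one was not called (-0.16). Nid2 read 9.20, 9.13 and 9.22, then 9.15, 9.10 and 9.05, then 10.67, 10.68 and 10.71. It was higher in ESCs than with vehicle by 1.50 ± 0.054 (adjusted p = 4.18e-09) and was not called with IWP2 (-0.08). The EpiSC groups overlapped for Nid2, and for both genes every ESC array was above all EpiSC arrays.

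Heparan sulfate proteoglycans complete the class. Col18a1, the source of endostatin, read 8.32, 8.24 and 8.47 with vehicle, 8.36, 8.29 and 8.22 with IWP2 and 9.21, 9.22 and 9.25 in ESCs, and was higher in ESCs than with vehicle by 0.88 (adjusted p = 1.53e-06). The EpiSC groups overlapped, and ESCs were above both. Hspg2 encodes perlecan. It read 7.95, 8.02 and 7.97, then 8.07, 8.01 and 8.04, then 8.11, 8.32 and 8.37, and was higher in ESCs by 0.29 against vehicle and 0.23 against IWP2. The call against IWP2 (adjusted p = 0.0175) was lost without IWP2 replicate 2 (0.0553) and without ESC replicates 2 or 3 (0.0587 and 0.0687). Another Hspg2 probe set was higher with IWP2 by 0.46 and lower in ESCs than with IWP2 by 0.53, both called, so the direction for Hspg2 depends on the probe set. Agrn, which encodes agrin, read 10.01, 9.92 and 10.12 with vehicle, 9.64, 9.59 and 9.55 with IWP2 and 9.46, 9.47 and 9.56 in ESCs. It fell by 0.42 ± 0.064 with IWP2 (adjusted p = 0.000796) and was lower in ESCs than with vehicle by 0.52, and ESC and IWP2 arrays overlapped (-0.10, adjusted p = 0.22). Another Agrn probe set, with group means of 3.78 to 3.96, was not called.

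**Figure D3:**
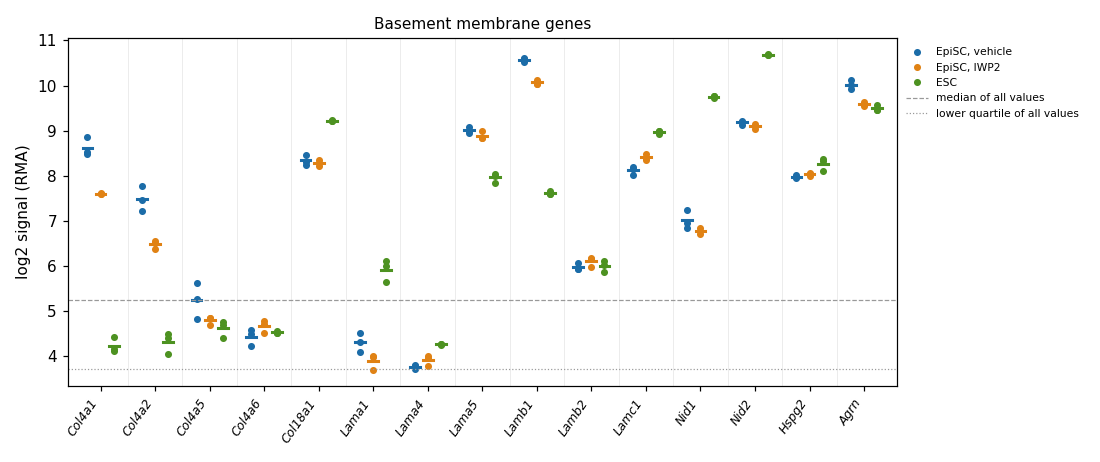
Each point is the log2 signal (y axis) of 1 array for the 15 basement membrane genes (x axis), coloured by group, with bars at group means and lines at the median (5.24) and lower quartile (3.72) of all values. Col4a1, Col4a2, Lama5 and Lamb1 are lowest in ESCs, and Col18a1, Lama1, Lamc1, Nid1 and Nid2 are highest there.

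Of the small leucine-rich proteoglycans, which bind collagen fibres, decorin was the one called. Dcn read 5.45, 5.84 and 5.67 on vehicle arrays, 6.79, 6.19 and 6.32 on IWP2 arrays and 4.96, 5.35 and 5.08 on ESC arrays. It rose by 0.78 ± 0.165 with IWP2 (adjusted p = 0.00499) and was 2.47-fold lower in ESCs than with IWP2 (adjusted p = 5.76e-05). IWP2 arrays were highest and ESC arrays lowest, with no overlap. The other Dcn probe set, below the lower quartile in all groups, was not called in any comparison (0.02 with IWP2). The call of Dcn in ESCs against vehicle (-0.52, adjusted p = 0.0183) was lost without vehicle replicate 2 (0.0691) or ESC replicate 1 (0.0613). Bgn (biglycan) had means of 4.94, 4.97 and 5.10 and Lum (lumican) of 3.98, 3.57 and 3.67, with no call for either. Without vehicle replicate 3 Bgn was higher in ESCs than with vehicle by 0.29 (adjusted p = 0.0417). Another Bgn probe set was lower with IWP2 by 0.86, which was called.

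Microfibrils carry elastic fibres and store growth factors. Fbn2, the fibrillin of embryonic tissues, read 7.81, 7.69 and 7.97 with vehicle, 7.19, 7.18 and 7.03 with IWP2 and 3.76, 4.66 and 4.43 in ESCs. ESCs were 11.7-fold lower than vehicle cells (adjusted p = 9e-08), and the groups did not overlap. Fbn2 fell by 0.69 ± 0.190 with IWP2 (adjusted p = 0.0193), a call lost without vehicle replicates 1 or 3 (0.0507 and 0.0656) or IWP2 replicate 3 (0.0676). Another Fbn2 probe set fell by 0.81 with IWP2 and was lower in ESCs than with vehicle by 3.22, both called. Fbln1, a fibulin that binds fibronectin and laminin, read 8.05, 7.88 and 8.05, then 8.21, 8.19 and 8.21, then 8.31, 8.45 and 8.28. It rose by 0.21 with IWP2 (adjusted p = 0.0387) and was higher in ESCs than with vehicle by 0.36 (adjusted p = 0.00109). The other Fbln1 probe sets were not called with IWP2 (0.03 and 0.22) and were higher in ESCs than with vehicle by 0.33 and 0.28. The rise of Fbln1 with IWP2 lost its call without vehicle replicates 1 or 2 (0.0504 and 0.121), without any of IWP2 replicates 1 to 3 (0.0843, 0.082 and 0.0932) and without ESC replicate 1 (0.051).

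The adhesive and matricellular glycoproteins showed several patterns. With IWP2 4 of 6 fell, each by at least 2-fold (median -1.21), against 16.8% of all genes and 2.81% at 2-fold, and without vehicle replicate 2 or 3 or IWP2 replicate 3 it was 3 at 2-fold. In ESCs 5 of 6 were lower than with vehicle (median -1.78), against 27.9% of all genes. Fn1 encodes fibronectin, the main adhesive protein that migrating mesoderm crosses. It read 10.79, 10.70 and 11.13 on vehicle arrays, 9.47, 9.52 and 9.50 on IWP2 arrays and 10.94, 10.97 and 11.004 on ESC arrays. It fell by 1.38 ± 0.098 with IWP2 (adjusted p = 4.83e-06), 2.60-fold, and ESCs were higher than IWP2 cells by 1.47 (adjusted p = 4.28e-07). ESC arrays lay within the vehicle range, with a difference of 0.10 (95% confidence interval -0.12 to 0.32, adjusted p = 0.405). Without vehicle replicate 3 that difference was 0.23 and was called (0.00942), and another Fn1 probe set was higher in ESCs than with vehicle by 0.87, also called. Fn1 was thus lowest in the IWP2 group on both probe sets.

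Vtn encodes vitronectin, a serum and matrix protein that binds αv integrins. It read 5.96, 5.77 and 6.62 with vehicle, 4.71, 3.83 and 4.12 with IWP2 and 4.52, 4.16 and 4.28 in ESCs. It fell by 1.90 ± 0.250 with IWP2 (adjusted p = 0.000316), by another probe set by 0.73, and ESCs and IWP2 cells overlapped (0.10, interval -0.46 to 0.66, adjusted p = 0.736). Postn, or periostin, a matricellular protein of mesenchyme, had a like pattern. Postn read 5.45, 5.17 and 5.85, then 3.63, 3.68 and 3.89, then 3.77, 3.70 and 3.73. It fell by 1.75 ± 0.147 with IWP2 (adjusted p = 1.56e-05) to the lower quartile of all values, where the ESC arrays also lay (0.00, interval -0.33 to 0.33).

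Tnc encodes tenascin-C, an anti-adhesive protein of developing and remodelled tissue. It read 6.61, 6.90 and 6.90 with vehicle, 5.89, 5.79 and 5.59 with IWP2 and 4.12, 4.65 and 4.53 in ESCs. It fell by 1.05 ± 0.141 with IWP2 (adjusted p = 0.000378) and was 5.15-fold lower in ESCs than with vehicle, with no overlap of groups. Another Tnc probe set, below the lower quartile in all groups, fell by 0.44. Thbs1, or thrombospondin-1, which binds many matrix proteins and activates TGF-β, separated the cell types. Thbs1 read 9.01, 9.04 and 9.10, then 8.85, 8.88 and 8.95, then 4.54, 4.31 and 4.31. It was 25.4-fold lower in ESCs than with vehicle (adjusted p = 1.35e-11), and its difference of -0.16 with IWP2 was not called (adjusted p = 0.124). Sparc (osteonectin), which binds collagen, read 10.26, 10.14 and 10.38 with vehicle, 10.16, 10.17 and 10.15 with IWP2 and 9.43, 9.40 and 9.45 in ESCs. It was lower in ESCs than with vehicle by 0.83 (adjusted p = 1.79e-06) and was not called with IWP2 (-0.10). Of its 3 probe sets 1 was higher in ESCs than with vehicle by 0.57, so the direction for Sparc also depends on the probe set.

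The vehicle arrays were not alike for these genes, as was seen from their values. Vehicle replicate 3 was the highest of the vehicle arrays for 22 of the 33 genes and for 11 of the 13 that fell with IWP2, against 36.6% of all genes. The 13 were called because vehicle lay higher, which a high vehicle array can favour. The share of all genes is thus not a matched one for them. Without vehicle replicate 3 the falls were 2.04 for Col3a1, 0.90 for Col4a1, 1.25 for Fn1, 1.65 for Vtn and 1.57 for Postn, all still called, and 11 of the 33 genes fell. Those of Col4a2 and Tnc were 0.86 and 0.997, so that with Col4a1 3 genes no longer reached 2-fold and 4 did. The median difference between ESCs and vehicle cells was -0.19 without it, against -0.31. Summed markers of fibroblasts and feeder cells were also highest on that array, at 12.1 against 11.8 and 11.6 (log2 of summed signals), and their part in the result was not tested.

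Summed levels of markers of other cell types differed between some of the groups. The counts called with IWP2 are to be read against 16.6% of all genes higher and 16.8% lower. All 15 listed markers of fibroblasts and feeder cells were measured, and their summed level was 11.6 to 12.1 with vehicle, 10.9 to 11.01 with IWP2 and 8.83 to 8.93 in ESCs. With IWP2 3 of them rose (Cnn1 by 1.37, Twist1 by 0.90 and Thy1 by 0.72) and 5 fell, among them Acta2 by 1.40 and Pdgfra by 1.36. Parietal endoderm, which makes a thick basement membrane, had 10 of 10 markers measured, with summed levels of 9.71 to 9.88, 7.83 to 7.90 and 7.60 to 7.72. With IWP2 6 of these fell, including Gata6 by 3.99 and Sox17 by 3.35, and 0 rose, while Sox7 was below the lower quartile in all groups. Definitive endoderm markers (8 of 9 measured) summed to 12.3 to 12.4 with vehicle, 7.19 to 7.35 with IWP2 and 7.55 to 7.61 in ESCs, and all 8 fell with IWP2. Of the primitive streak and mesoderm markers 9 of 10 were measured, at 9.26 to 9.74, 8.001 to 8.16 and 8.42 to 8.48, with 1 higher and 2 lower with IWP2. Trophoblast markers (8 of 9) summed to 9.50 to 9.77, 7.36 to 7.53 and 7.93 to 7.996, visceral endoderm markers (10 of 10) to 9.62 to 9.75, 9.10 to 9.26 and 12.8 to 12.9, and endothelial markers (8 of 8) to 7.24 to 7.57, 7.19 to 7.28 and 8.18 to 8.31 in the same order of groups. A summed level depends most on the brightest genes of a list. In ESCs against vehicle Rhox5 was higher by 8.10 and Apoe by 1.45, and the visceral endoderm markers had a median difference of 0.44. Acta2 was lower by 4.69 and Tagln by 4.42, and the fibroblast and feeder markers had a median difference of -0.27. Of the visceral endoderm markers 8 were higher and 1 lower, and of the fibroblast and feeder markers 1 and 7. Of all genes 38.7% were higher and 27.9% lower. Fewer cells of a type and less RNA per cell cannot be told apart in these bulk samples, and the part of these markers in the matrix results was not tested.

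Other genes of the matrix were followed in 7 lists with 158 measured genes of 177 listed. The shares of all genes to read their counts against were 16.6% higher and 16.8% lower with IWP2, 38.7% and 27.9% in ESCs against vehicle, and 35.2% and 26.9% in ESCs against IWP2. Among 20 genes of collagen hydroxylation, folding and processing 4 rose and 6 fell with IWP2, and in ESCs 5 were higher and 14 lower than with vehicle (median -0.46). Serpinh1, the collagen chaperone HSP47, was lower in ESCs than with vehicle by 2.99, and Tll1, a procollagen C-proteinase of the tolloid family, by 2.85. Tll1 also fell by 2.65 with IWP2. Pcolce and Pcolce2, enhancers of that cleavage, were higher in ESCs than with vehicle by 2.33 and 1.84. Against IWP2 cells 4 were higher and 11 lower in ESCs, including P4ha1, a collagen prolyl 4-hydroxylase subunit (-1.60).

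Of 6 crosslinking genes 0 rose and 2 fell with IWP2, and in ESCs 1 was higher and 2 lower than with vehicle and 2 were higher and 2 lower than with IWP2. Pxdn, peroxidasin, which forms the sulfilimine crosslinks of collagen IV, was lower in ESCs than with vehicle by 4.79 and than with IWP2 by 4.55, and fell by 0.24 with IWP2. Tgm2, tissue transglutaminase, fell by 1.40 with IWP2 and was higher in ESCs than with IWP2 by 1.30.

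Among 26 matrix proteases and inhibitors 2 rose and 11 fell with IWP2. Plat, the tissue plasminogen activator, fell by 1.27 and the inhibitor Timp4 by 1.11, whereas the gelatinase Mmp2 rose by 0.35. In ESCs 7 were higher and 12 lower than with vehicle, and 8 and 8 than with IWP2. The inhibitor Timp1 and the serine protease Htra1 were both higher in ESCs than with vehicle by 2.45, and the membrane-bound Mmp14 and the secreted Adamts1 lower by 2.78 and 3.36.

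Of 15 matrix receptors other than integrins 5 rose and 3 fell with IWP2, and in ESCs 3 were higher and 10 lower than with vehicle (median -0.58) and 2 and 9 than with IWP2. Cd44, the hyaluronan receptor, fell by 2.13 with IWP2 and was lower in ESCs than with vehicle by 4.46. Has2, the main hyaluronan synthase, which stands in another list, fell by 1.78 and was lower in ESCs by 4.16. The proteoglycan Sdc2 rose by 0.68 with IWP2 and was lower in ESCs than with vehicle by 3.35, and the glypican Gpc3 fell by 1.77. Ddr1, a collagen receptor tyrosine kinase, was lower in ESCs than with IWP2 by 2.55.

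Among 27 other collagens 2 rose and 6 fell with IWP2, with 16.6% and 16.8% of all genes. In ESCs 13 were higher and 4 lower than with vehicle, with 38.7% and 27.9%, and 12 and 4 than with IWP2. Col2a1, the fibrillar collagen of cartilage and notochord, fell by 1.97 with IWP2 and was lower in ESCs than with vehicle by 1.21. Col8a2 fell by 1.41, and Col11a1, which co-assembles with type II collagen, rose by 1.09. Between ESCs and IWP2 cells 0 of the 27 were called at 2-fold or more, against 7.87% higher and 9.40% lower of all genes.

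The remaining laminins and basement membrane genes had 9 of 16 lower with IWP2, all 9 by at least 2-fold, and 1 higher (median -1.07). Of all genes 2.81% were lower with IWP2 at 2-fold or more. Ntn1, a netrin with a laminin-like domain, fell by 3.26 with IWP2 and was higher in ESCs than with vehicle by 1.18. Frem1, a Fraser complex protein of the epithelial basement membrane, fell by 3.26, and Frem1 and Frem2 were lower in ESCs than with vehicle by 3.68 and 4.15. In ESCs 4 were higher and 8 lower than with vehicle, and 5 and 4 than with IWP2, where Smoc1 was higher by 2.50. Among 48 other glycoproteins and proteoglycans 6 rose and 9 fell with IWP2. In ESCs 17 were higher and 14 lower than with vehicle, and 15 and 14 than with IWP2. These shares were near those of all genes given above. At 2-fold or more 1 was higher and 10 lower in ESCs than with vehicle, against 6.87% and 9.63% of all genes. The matrilin Matn3 rose by 2.56 and the spondin Spon1 by 1.72 with IWP2, and Fbln2 fell by 1.36. Efemp1 was lower in ESCs than with vehicle by 3.35, and Ltbp4, which binds latent TGF-β, higher by 1.49.

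**Figure D4:**
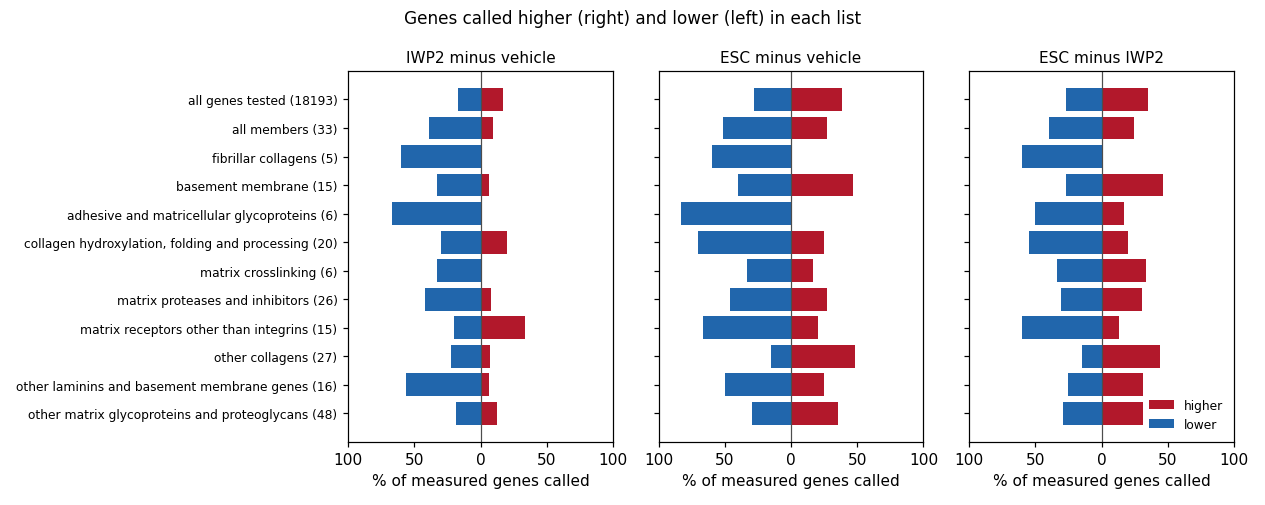
Bars show the percent of measured genes (x axis) called higher (right) and lower (left) by limma in each list (y axis, number measured in brackets) for the 3 comparisons. With IWP2 the bars of all genes reach 16.6% higher and 16.8% lower, and 4 of 6 adhesive glycoproteins and 9 of 16 other basement membrane genes were called lower.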

How the data were processed

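RNA from 9 cultures was hybridised to 9 arrays, per the labels' protocols. The authors deposited log2 values of 45101 probe sets, made with RMA and limma per the submitters' processing notes, which give no versions. Quantile normalization is part of RMA, so differences in the total RNA of a cell are not visible, and the table holds no detection calls. Of the probe sets 34945 had 1 gene symbol in the platform annotation, 932 had several and 9160 none. Each of 18193 genes is represented by its brightest probe set, averaged over the 9 arrays, and the 33 genes had 68 probe sets. Levels of different probe sets are not comparable.

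One model over all 9 arrays, with a mean per group, was fitted with limma 3.58.1 in R 4.3.3 (lmFit, then eBayes). It had 6 residual degrees of freedom, or 9.58 with the moderated variance. All tests are two-sided with Benjamini-Hochberg adjustment over the 18193 genes, and the call threshold was an adjusted p of 0.05. All errors of differences are standard errors, with n = 3 arrays per group, and the number of arrays limits the precision. On simulated data for IWP2 minus vehicle (18193 genes, 50 changed per size), the test found 36% of log2 changes of 0.3, 70% of 0.5, 98% of 1 and 100% of 2, and 4.4% of its calls fell on unchanged genes. No other genes changed there, whereas in the data 33.5% of genes were called with IWP2. The adjustment is stricter when fewer genes change, so these shares may not hold for the data.

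Arrays are shown in full for genes called at 2-fold or more whose higher group reached the median of all values, and for genes above that median in all groups, except Lamb2. Of the other matrix lists up to 2 called genes with the largest difference in each direction were eligible to be named, and not all were. The members and all lists were chosen with earlier results of these data known. The alternatives concerned the choice or averaging of probe sets, a low-signal filter, an added offset of 32 (linear scale), renormalization (quantile, cyclic loess or median centring), variance models, separate fits per pair of groups, a replicate block, a threshold of 0.01, treat against a log2 difference of 1, and the omission of each array. Scan dates were not used here.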

Additional observations from a re-analysis of the deposited data

How the results depend on the processing

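Of 2157 values of single genes under the alternatives, 2041 kept direction and side of the threshold, 89 lost a call, 24 gained one and 3 reversed. Many of these differences were the same by construction, as where an array of the group not compared was left out. They were also the same under the low-signal filter, the stricter threshold, treat, the replicate block and the separate fits. There only the call could change, so 2041 is not a count of independent checks. A sign change between values that were both not called was counted as kept. When probe sets of a gene were averaged the reversals were Bgn for IWP2 minus vehicle (-0.35, adjusted p = 0.000427) and for ESC minus vehicle (-0.14, 0.0294), and Hspg2 for ESC minus IWP2 (-0.15, 0.0525). The probe sets of both genes differ in direction. With that mean 2 basement membrane genes rose with IWP2, and Fn1 was called higher in ESCs than with vehicle (0.48). With every probe set as its own feature the rises with IWP2 numbered 5 in all and 3 in the basement membrane. Treat, which asks for more than a 2-fold change, left with IWP2 0 rises and 2 falls, of which 1 was a fibrillar collagen and 0 were basement membrane genes (0 rises there). It left 3 higher and 11 lower in ESCs than with vehicle (basement membrane 3 and 3), and 4 higher and 6 lower than with IWP2 (basement membrane 3 higher, 1 fibrillar collagen lower). Of all 18193 genes treat called 345 with IWP2, 2148 in ESCs against vehicle and 2279 in ESCs against IWP2, both directions together. Leaving out 1 array at a time gave 1 to 3 basement membrane genes that rose with IWP2, 2 without vehicle replicate 3 and 3 without IWP2 replicate 1. The fall of Lama1 with IWP2 was also lost with the offset, median centring and array weights.

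Same-numbered arrays did not deviate together (correlations of -0.06 to 0.05), and arrays of different number correlated at -0.10 to 0.07. No pairing by number was thus seen. With 3 arrays per group this check cannot settle whether the samples were paired. With a replicate block 2 genes rose and 12 fell with IWP2, and the calls of Lama1 (adjusted p = 0.0633) and Fbln1 (0.0738) were lost. In ESCs the block left 9 higher and 17 lower than with vehicle, and 8 and 13 than with IWP2. Of all 18193 genes the block called 5754 with IWP2, 12024 in ESCs against vehicle and 11138 in ESCs against IWP2, both directions together. A low signal limits what is seen: the low-signal filter kept 26 of the 33 genes, and differences that reach the lower quartile of 3.72, as for Col3a1 and Postn, may be larger than measured.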
